A study of Arabidopsis thaliana with 16 samples.

Results

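A set of 5 probe sets for genes of iron uptake and of iron movement within the plant were followed along the Arabidopsis root on iron-sufficient and iron-deficient medium. They were chosen by identifier, 5 of the 22746 probe sets that were not array controls. These are 254550_at (IRT1, AT4G19690), 264751_at (FRO3, AT1G23020), 245296_at (OPT3, AT4G16370), 259632_at (NAS4, AT1G56430) and 251620_at (MTP8, AT3G58060). The first 4 were not listed in the platform annotation used here, so their gene names rest on the array mapping given with the selection rule. Only MTP8 was found through its annotated locus, and its name was likewise given with the rule. The choice was made with earlier medium differences of these arrays known. The medium differences of the 5 are therefore given as a description, with no test.

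Roots of Columbia seedlings, a wild-type accession, grew for 5 days on standard medium and were then moved to fresh standard medium or to -Fe medium, in which 0.3 mM Ferrozine, an iron chelator, took the place of the iron source. All groups shared the accession and the growth before transfer, and the labels name no mutation or transgene. Roots were cut into 4 pieces, with about 15 roots pooled per replicate. Whether the zones that carry the same replicate number came from the same roots is not stated. Zone 1 was the lowest 150 µm, zone 2 the next 200 µm up to about the end of the meristem, zone 3 the next 200 to 300 µm, ending under the emerging root hairs. Zone 4 was the 1 mm above that. With 4 zones and 2 media there were 8 groups of 2 arrays, 16 arrays in all. Nothing in the labels places replicates in separate cultures, and p-values then cover only the variation from pool to pool, which may be technical.

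Plants such as Arabidopsis take up iron from soil by acidifying it, reducing ferric to ferrous iron at the root surface and importing the ferrous ion. IRT1, a ZIP-family transporter of the root epidermis, is the main importer of ferrous iron and also carries zinc, manganese, cobalt and cadmium. FRO3 belongs to the ferric reductase family and is linked to mitochondria and to the vascular tissue of the root. NAS4 makes nicotianamine, a chelator that keeps iron soluble in phloem and cells. OPT3 is a phloem transporter that moves iron between leaves, roots and seeds and takes part in reporting shoot iron status to the root. MTP8 is a vacuolar cation transporter that sequesters manganese, which IRT1 also imports.

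Values were array intensities on a linear scale, each array scaled by the authors to a common mean. Differences were taken on log2(intensity + 7.73), where the added offset is the 20th percentile of all intensities. On this scale the change of a dim probe set is understated. Of 16505 probe sets that passed a filter on dim signal, all 5 were among those kept. FRO3, OPT3 and NAS4 would have passed by their standard arrays alone, whereas IRT1 and MTP8 passed only through their -Fe arrays. No sentence below compares the level of one probe set with that of another.

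Replicate arrays correlated across probe sets at r from 0.921 (zone 3, standard medium) to 0.974 (zone 2, -Fe medium). Zone 4 standard replicate 2 had the lowest signal of the 16 for the 25S ribosomal RNA control, 348 units against up to 8609. The ratio of 3′ to 5′ actin signal, which can rise with RNA degradation, was highest at 10.2 in zone 4 -Fe replicate 1. On that array the same ratio was 1.48 for GAPDH and 3.21 for ubiquitin. Over the 16 arrays these ran from 1.40 to 2.17 and from 2.64 to 6.45. Of 25 marker genes listed for root cap, meristem, root hair, endodermis, vascular and leaf cells, 3 had a probe set annotated to them alone. The platform annotation used here did not list 8730 of the 22746 probe sets, so others may be on the array. AUR1, a mitotic kinase gene, read 896 and 993 units in zone 1 on standard medium and 115 to 150 units in zone 3. EXPA7, an expansin gene of root hair cells, read 62.7 and 38.5 units in zone 1 and 3218 and 3194 in zone 3, on standard medium. Its signal was thus already high in the piece below the first visible hairs.

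IRT1 was at the bottom of the intensity range on standard medium and bright on -Fe medium in the upper root. In zone 1 it read 6.73 and 1.51 units on standard medium and 90.3 and 25.5 on -Fe medium. Zone 2 gave 18.1 and 2.04 units on standard medium and 235 and 119 on -Fe. Zone 3 gave 15.7 and 5.97 units on standard medium and 1524 and 1362 on -Fe. All -Fe arrays of these zones lay above all standard ones. In zone 4 the standard arrays read 5.14 and 10.3 units and the -Fe arrays 4443 and 3440. On standard medium 5 of the 8 arrays were below the offset, so no order of the zones can be read there.

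The log2 difference of IRT1 between the media was 2.30 ± 0.56 (SE, 2 against 2 arrays) in zone 1 and 3.47 ± 0.56 in zone 2. It was 6.34 ± 0.56 in zone 3 and 8.01 ± 0.56 in zone 4, where 1 of the 16505 probe sets had a larger increase. IRT1 was chosen with these differences known, so nothing is read from that rank. In linear terms the zone 4 mean was 3941 units against 7.71, a ratio of 511 that rests on very dim standard readings, and the lowest -Fe array was 335 times the highest standard array. Without the offset the 4 log2 differences were 3.91, 4.79, 7.22 and 9.07, larger in each zone and in the same order. In zone 1 the difference was 1.52 without -Fe replicate 1 and 3.09 without -Fe replicate 2. In zone 2 it was 4.17 without standard replicate 1 and 2.77 without standard replicate 2.

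**Figure D1:**
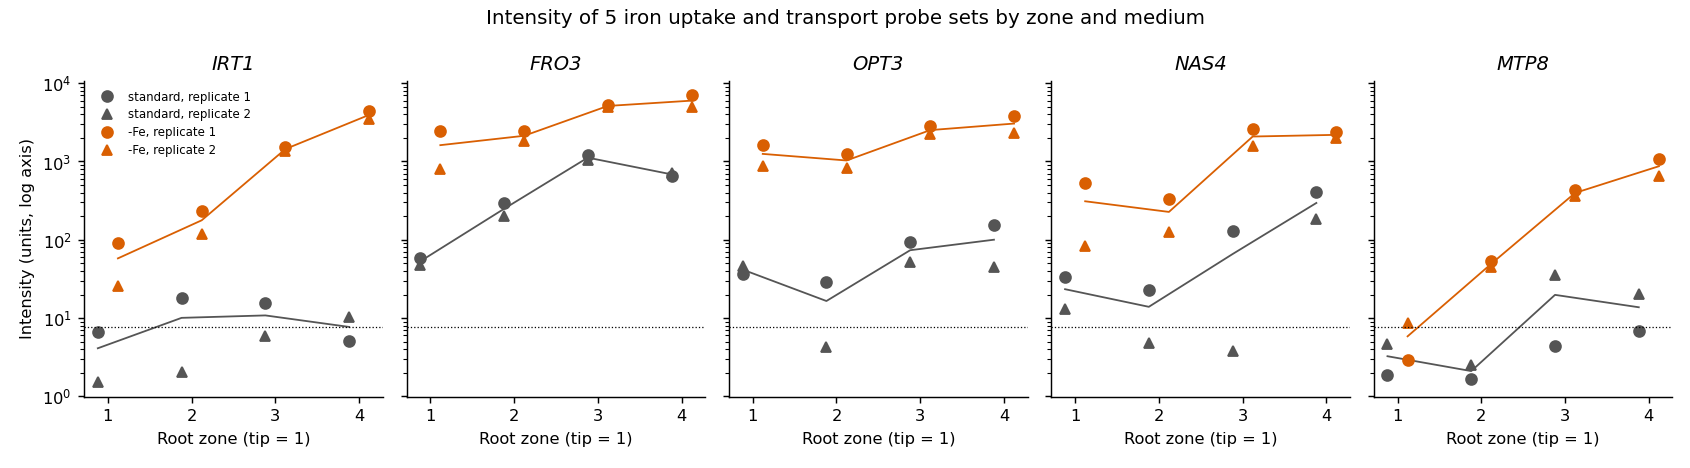
Intensity of the 5 probe sets (log axis, units) in each zone, for the standard medium (grey) and the -Fe medium (orange). Circles are replicate 1 and triangles replicate 2, lines join group means, and the dotted line is the offset of 7.73 units. IRT1 runs from 25.5 to 4443 units along the -Fe root and stays at or below 18.1 units on standard medium.

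The labels conflict on timing. By their descriptions, standard roots were cut 1 h after transfer and -Fe roots after 24 h, while the protocol states 24 h throughout. The medium differences of all 5 genes may therefore include time since transfer, and the 2 cannot be told apart. In pieces of tissue like these, fewer cells of a type and less RNA per cell cannot be told apart either.

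MTP8, the vacuolar cation transporter, had a similar run along the -Fe root. In zone 1 it read 1.87 and 4.64 units on standard medium and 2.93 and 8.77 on -Fe medium, and these groups overlapped. Zone 2 gave 1.67 and 2.53 units on standard medium against 54.0 and 44.9 on -Fe. In zone 3 the standard arrays read 4.46 and 35.1 units and the -Fe arrays 432 and 362. Zone 4 gave 6.90 and 20.6 units on standard medium against 1088 and 651 on -Fe. From zone 2 upward no -Fe array overlapped a standard one, while on standard medium 6 of 8 arrays lay below the offset. The log2 difference was 0.28 ± 0.52 in zone 1, 2.54 ± 0.52 in zone 2, 4.14 ± 0.52 in zone 3 and 5.38 ± 0.52 in zone 4. Without the offset the 4 values were 0.78, 4.58, 4.98 and 6.14, so the size of the zone 2 difference depends on the offset. The zone 3 value was 3.23 without standard replicate 1 and 5.05 without standard replicate 2.

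OPT3, the phloem transporter, was higher on -Fe medium in every zone. On standard medium it read 36.6 and 46.7 units in zone 1 and 28.8 and 4.24 units in zone 2, then 94.8 and 52.4 units for zone 3 and 156 and 44.3 units for zone 4. On -Fe medium it read 1632 and 869 units in zone 1 and 1232 and 828 units in zone 2, then 2805 and 2228 units for zone 3 and 3815 and 2287 units for zone 4. The lowest of the 8 -Fe arrays was 5.30 times the highest of the 8 standard arrays. OPT3 and IRT1 were among 12 probe sets, 0.0727% of those kept, whose 8 -Fe arrays all lay above their 8 standard arrays. As both genes were chosen by the medium contrast, nothing is read from that share. The log2 difference of OPT3 was 4.61 ± 0.58 in zone 1, 5.61 ± 0.58 in zone 2, 5.00 ± 0.58 in zone 3 and 5.00 ± 0.58 in zone 4. The zone 2 value was 6.51 without the offset, 6.41 without standard replicate 1 and 4.80 without standard replicate 2. The zone 4 value was 5.83 without standard replicate 1 and 4.18 without standard replicate 2.

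FRO3, the ferric reductase, was higher on -Fe medium in every zone and was also above the offset on every standard array. On standard medium it read 58.8 and 47.3 units in zone 1 and 296 and 201 units in zone 2, then 1202 and 1038 units for zone 3 and 662 and 708 units for zone 4. On -Fe medium it read 2427 and 806 units in zone 1 and 2436 and 1823 units in zone 2, then 5221 and 5022 units for zone 3 and 6986 and 4988 units for zone 4. The groups did not overlap in any zone, and 7 of the 8 -Fe arrays exceeded the highest standard array. In contrast to IRT1, the log2 difference was largest in zone 1, at 4.54 ± 0.39, and was 3.07 ± 0.39 in zone 2, 2.19 ± 0.39 in zone 3 and 3.09 ± 0.39 in zone 4. It was 3.75 in zone 1 without -Fe replicate 1 and 5.33 without -Fe replicate 2.

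NAS4, the nicotianamine synthase, had the widest spread between replicates. On standard medium it read 33.6 and 13.2 units in zone 1 and 23.1 and 4.80 units in zone 2, then 128 and 3.82 units for zone 3 and 406 and 185 units for zone 4. On -Fe medium it read 536 and 84.3 units in zone 1 and 328 and 126 units in zone 2, then 2612 and 1555 units for zone 3 and 2394 and 1985 units for zone 4. Within each zone both -Fe arrays lay above both standard arrays, although the lower zone 1 and zone 2 -Fe arrays were below the zone 4 standard arrays. The log2 difference was 2.93 ± 1.02 in zone 1, 3.43 ± 1.02 in zone 2, 5.68 ± 1.02 in zone 3 and 2.95 ± 1.02 in zone 4. The zone 1 value was 1.65 without -Fe replicate 1 and 4.21 without -Fe replicate 2. The zone 3 value rests on standard arrays 33.4 times apart, and was 7.45 without replicate 1 and 3.90 without replicate 2 of that group.

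**Figure D2:**
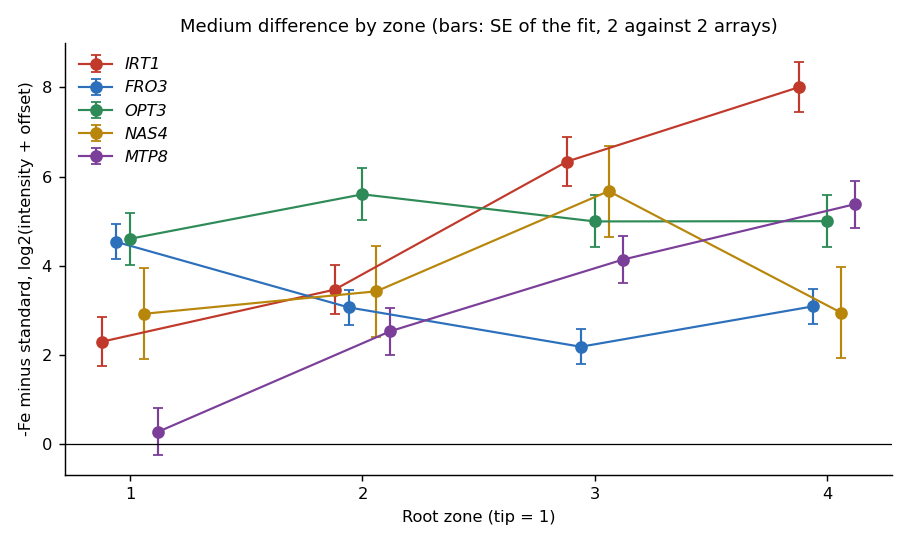
Difference between -Fe and standard medium on the log2(intensity + offset) scale (y axis) in zones 1 to 4 (x axis) for each gene, with the SE of the fit over 2 against 2 arrays as bars. IRT1 goes from 2.30 to 8.01 and MTP8 from 0.28 to 5.38, OPT3 lies between 4.61 and 5.61, and FRO3 is highest in zone 1 at 4.54.

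Counted over the members, both -Fe arrays exceeded both standard arrays in 4 of 5 genes in zone 1 and in 5 of 5 in zones 2, 3 and 4. Among all probe sets kept this held for 15.5% in zone 1, 13.8% in zone 2, 11.7% in zone 3 and 16.8% in zone 4. As the genes were chosen by this contrast, nothing is read from these counts. The exception was MTP8 in zone 1. The median difference over all probe sets kept was between -0.09 and -0.00 in the 4 zones on the log2 scale.

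The 5 genes differed in how the medium difference was laid out along the root. The difference in zone 4 minus that in zone 1 was 5.70 ± 0.79 (log2, SE) for IRT1 and 5.10 ± 0.74 for MTP8. For OPT3 it was 0.39 ± 0.82 and for NAS4 0.03 ± 1.44. For FRO3 it was -1.45 ± 0.55. These values were not tested, since they are made from the contrast by which the genes were chosen.

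The zone means give the layout of each gene along the root on either medium. For each gene the mean of each zone was expressed as a share of the sum of its 4 zone means, which is a share of signal per equal amount of RNA and not per root. On -Fe medium zone 4 held 70.1% of the IRT1 sum, 65.8% of the MTP8 sum, 45.5% for NAS4, 40.3% for FRO3 and 38.9% for OPT3. Zone 1 held 1.03% of the IRT1 sum and 0.442% of the MTP8 sum, against 15.9% for OPT3, 10.9% for FRO3 and 6.45% for NAS4. On standard medium the highest mean was in zone 4 for OPT3 and NAS4 as on -Fe medium, and in zone 3 for FRO3, whose zone 3 share was 53.2%. IRT1 and MTP8 were too dim on standard medium for their shares to be read.

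**Figure D3:**
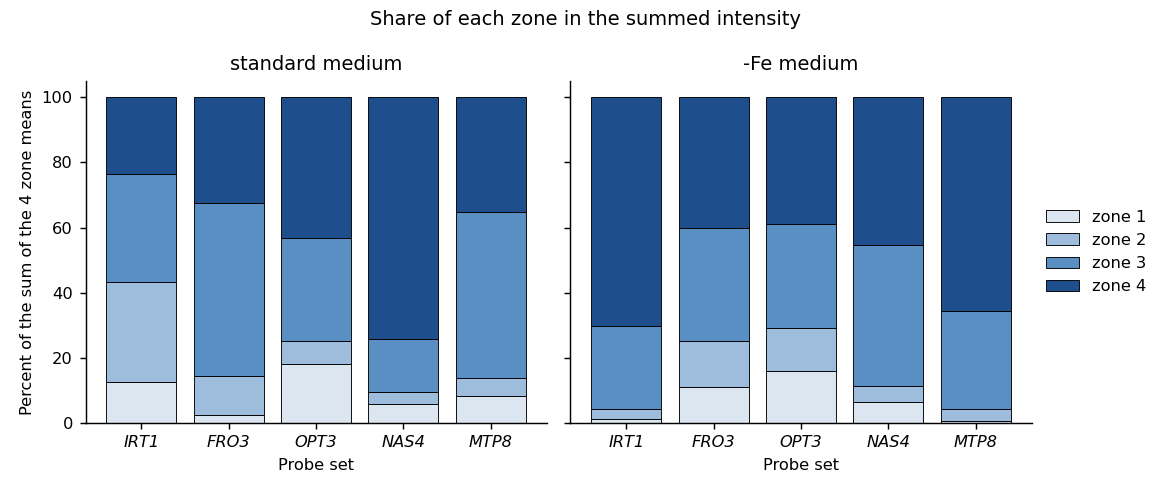
Share of each zone (percent, stacked from zone 1 at the bottom to zone 4 at the top) in the sum of the 4 zone means of a gene, on standard and on -Fe medium. On -Fe medium zone 4 makes up 70.1% for IRT1 and 65.8% for MTP8, and 38.9% to 45.5% for the other genes.

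On -Fe medium the step from zone 2 to zone 3 went up without overlap of arrays in 5 of 5 genes, against 36.1% of all probe sets kept. IRT1 was 8.14 times higher in zone 3 than in zone 2 by the means and 2.73 times higher in zone 4 than in zone 3. MTP8 was 8.02 and 2.19 times higher at the same steps. From zone 1 to zone 2, and again from zone 3 to zone 4, the arrays were separate and higher in the upper zone only for IRT1 and MTP8, 2 of 5 genes against 29.9% and 32.6% of probe sets. FRO3, OPT3 and NAS4 overlapped at both of these steps, so their order between zones 1 and 2 and between zones 3 and 4 is not settled. These comparisons use the -Fe arrays that chose the genes and were not tested.

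The zone steps on standard medium are another contrast and were tested with limma across all 16505 probe sets, although they share the standard arrays with the medium differences. FRO3 rose from zone 1 to zone 2 by 2.06 ± 0.39 (log2, SE, adjusted p = 0.0061) and from zone 2 to zone 3 by 2.16 ± 0.39 (adjusted p = 0.000723), from a mean of 53.1 units through 248 to 1120. From zone 3 to zone 4 its arrays separated downward, but the difference of -0.70 ± 0.39 did not pass (adjusted p = 0.279). OPT3 rose from zone 2 to zone 3 by 1.91 ± 0.58 (adjusted p = 0.0159), from a mean of 16.5 to 73.6 units. Both arrays were higher in zone 3 than either in zone 2.

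Without zone 2 standard replicate 1 the FRO3 step from zone 1 to zone 2 was 1.79 in place of 2.06. It no longer passed in that fit, which left 1 array in the zone 2 group. On the array left out, the summed intensity of EXPA7 and EXPA18, 2 of the 4 listed root hair genes, was 645 units against 61.9 on its replicate. AUR1 read 304 units against 490. The part of this in the result was not tested. The OPT3 step was lost without zone 2 standard replicate 2 (1.10, adjusted p = 0.193), without zone 3 standard replicate 1 (1.52, adjusted p = 0.107), with array weights (adjusted p = 0.0539) and in a fit of those 4 arrays alone (adjusted p = 0.058).

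The other steps did not pass in this fit, which had no block for the replicate number. NAS4 differed by 2.84 ± 1.02 from zone 3 to zone 4, from a mean of 65.7 to 295 units, with separate arrays (adjusted p = 0.0991). This step passed with a replicate block (limma, adjusted p = 0.0156). Leaving out 1 array gave differences from 1.06 to 4.61. The 4.61 was without zone 3 standard replicate 1 (128 units), which left only replicate 2 at 3.82 units, below the offset. MTP8 differed by 1.22 ± 0.52 from zone 2 to zone 3 (adjusted p = 0.0696), but 3 of those 4 arrays lay below the offset. No step is read for it, although the adjusted p was 0.00402 without zone 3 standard replicate 1 and 0.0335 without the offset. OPT3 differed by -1.23 ± 0.58 from zone 1 to zone 2 (adjusted p = 0.143), a step that passed with a replicate block (adjusted p = 0.0389). IRT1 differed by 0.46, 0.17 and -0.23 ± 0.56 over the 3 steps, with adjusted p from 0.582 to 0.831, and at least 2 of the 4 arrays of each step were below the offset.

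IRT1 and MTP8 were too dim on standard medium to be counted. Of the other 3 genes, 1 rose from zone 1 to zone 2, where 10.6% of all probe sets did, and 2 rose from zone 2 to zone 3, where 22.9% did. From zone 3 to zone 4, 0 of 3 passed with limma, against 8.58% of all probe sets in either direction. Calls that were higher in zone 4 made up 3.28% of all probe sets. At that step 1 of 3, NAS4, had an unadjusted p under 0.05, as had 26.4% of all probe sets. By arrays that did not overlap, FRO3 was higher at the first step, where 29.6% of all probe sets were, FRO3 and OPT3 at the second against 34.1%, and NAS4 at the third against 26.6%. MTP8 also separated upward at the second step, with the dim readings given above. No test of the genes as a set was made.

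**Figure D4:**
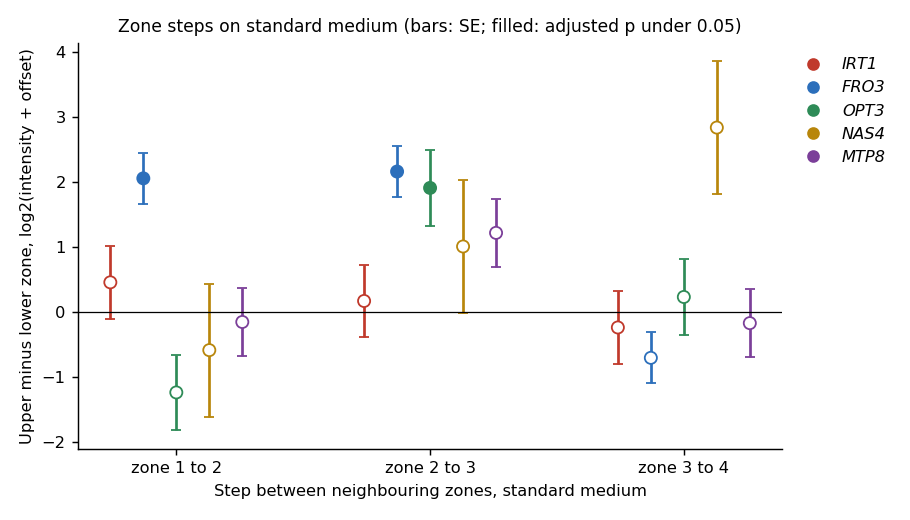
Difference between neighbouring zones on standard medium (upper minus lower zone, log2(intensity + offset) scale, y axis) for each step (x axis) and gene, with the SE as bars. Filled points passed at an adjusted p under 0.05 in limma, namely both lower steps of FRO3 and the OPT3 step from zone 2 to zone 3.

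The arrays labelled replicate 1 on -Fe medium read higher than those labelled replicate 2 in nearly every case. This held for 19 of 20 pairs of gene and zone, the exception being MTP8 in zone 1. On either medium the 5 genes of a zone were read on the same 2 arrays, so the 20 pairs are not separate observations. The factor between replicates for IRT1 was 3.54 in zone 1, 1.97 in zone 2, 1.12 in zone 3 and 1.29 in zone 4. For NAS4 it was 6.37 in zone 1 and for FRO3 3.01 in zone 1. Over all probe sets kept, replicate 1 was the higher array for 48.4% in zone 1, 49.0% in zone 2, 58.1% in zone 3 and 51.5% in zone 4. On standard medium replicate 1 was higher for 13 of 20 pairs, and over all probe sets kept for 50.4%, 48.4%, 59.8% and 57.9% in zones 1 to 4. On -Fe medium the root hair genes EXPA7 and EXPA18, replicate 1 first, summed to 60.3 and 43.6 units in zone 1 and 129 and 29.6 units in zone 2. The sums were 7823 and 9387 units for zone 3 and 4092 and 1994 units for zone 4. AUR1, in the same order, read 981 and 1164 units in zone 1 and 294 and 314 units in zone 2. It read 108 and 133 units in zone 3 and 236 and 297 units in zone 4. The part of these marker genes in the difference was not tested.

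**Figure D5:**
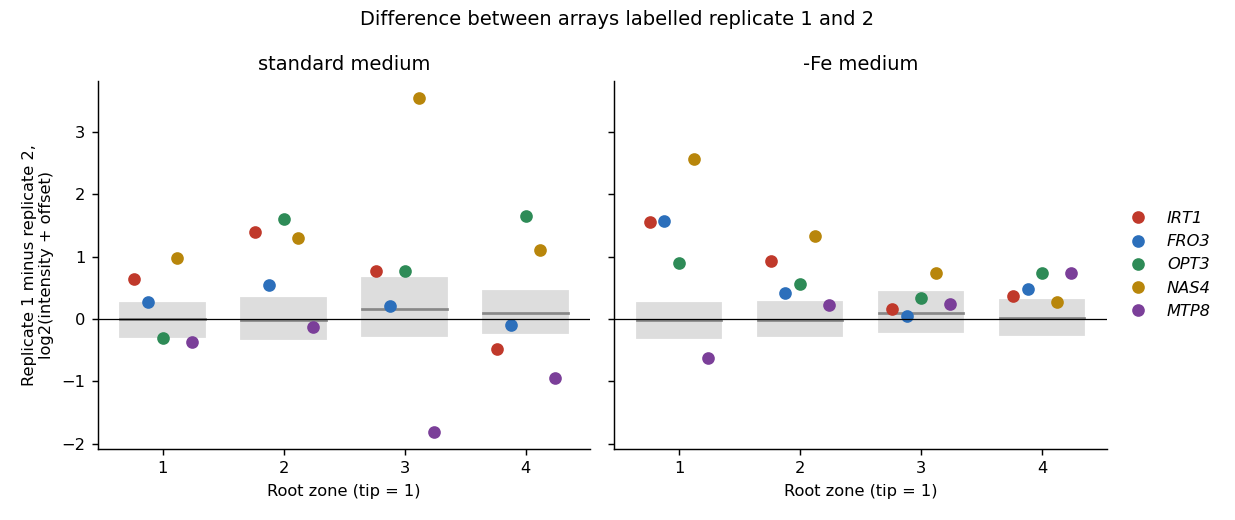
Replicate 1 minus replicate 2 on the log2(intensity + offset) scale (y axis) for each gene in each zone (x axis), on standard medium (left) and -Fe medium (right). Grey boxes span the middle 50% of all 16505 probe sets and grey lines their median. On -Fe medium 19 of 20 points lie above 0, and the 5 points of a zone come from the same 2 arrays.

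The 5 genes ran closely together across the 8 -Fe arrays. Pearson's r of the log2 values ranged from 0.806 (OPT3 and MTP8) to 0.967 (IRT1 and MTP8, and OPT3 and NAS4). Over the 8 standard arrays it ranged from -0.033 (IRT1 and MTP8) to 0.713 (OPT3 and NAS4). IRT1 was below the offset on 5 of these 8 arrays and MTP8 on 6, so the standard-medium correlations of these 2 genes cannot be read. All these correlations describe arrays that share zones and may share roots, with 2 arrays per zone, and are no test. Those on -Fe medium also use the arrays that chose the genes.

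The named genes most like each member over all 16 arrays were found among 9167 probe sets annotated to 1 gene, by Pearson's r of the log2 values. Since the media separate the arrays, r within the 8 -Fe arrays is given as well for some, including the closest gene of each member. For IRT1 the first 4 were AT5G38820 (r = 0.960, and 0.991 within -Fe), PYE (0.950 and 0.948), ATPMEPCRB (0.942 and 0.930) and BHLH101 (0.936 and 0.865). PYE and BHLH101 encode bHLH transcription factors of the iron-deficiency response, and ATPMEPCRB a pectin methylesterase. AT5G38820 was also first for MTP8 (0.943 and 0.971), followed by AT3G11420, AT3G07720 and AT1G73120 (0.914 to 0.916). AT5G38820 read 56.1 to 163 units on the standard arrays and up to 4099 on -Fe, with log2 differences of 0.68, 0.67, 4.00 and 5.64 in zones 1 to 4.

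For OPT3 the closest was AT5G05250 (r = 0.983, and 0.949 within -Fe), with log2 differences of 4.83, 5.11, 5.70 and 5.33 in zones 1 to 4. AT1G47400 followed (0.944, and 0.456 within -Fe), then AT3G56360 and BHLH101. For NAS4 the closest was AT1G74770 (0.955 and 0.888), followed by AT3G07720, ATPMEPCRB and AT3G56360 (0.908 to 0.914). FRO3 had lower values, from 0.867 to 0.877, for ATPMEPCRB, AT3G56360, AT2G02050 and AT2G33220. Within -Fe these 4 had r of 0.984, 0.881, 0.663 and 0.924, in that order. The last 2, AT2G02050 and AT2G33220, differed little between the media, by 0.18 to 0.43 on the log2 scale over the 4 zones. Within the 8 standard arrays their r with FRO3 was 0.952 and 0.915. AT3G56360 and ATPMEPCRB were each among the closest 4 of 3 members.

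Of 61 other genes listed for iron reduction, uptake, chelation and metal transport, 5 had a probe set annotated to them alone, and all 5 passed the filter. They were the zinc transporter-family genes ZIP6 and ZIP9, of the same family as IRT1, and MTP9, MTP10 and MTP11, cation efflux genes of the same family as MTP8. The other 56 were not analysed here by name, among them FRO2, the root-surface ferric reductase gene, and IRT2, which lies next to IRT1 on chromosome 4. Whether the IRT1 probe set also binds IRT2 transcripts was not tested.

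None of the 5 passed the test between the media. Limma called 0 of 5 in each zone, averaged over the zones and for a difference between the zones, where it called 0.109%, 0.103%, 0.291% and 0.927% of all probe sets in zones 1 to 4, 1.41% averaged and 0.121% for the difference between zones. At an unadjusted p under 0.05 there was 1 of 5 in zone 4, which was MTP11, where 11.3% of all probe sets had one. There were 0 of 5 in the other comparisons, where 2.48% to 14.6% of all probe sets did. MTP11 read 290 and 244 units in zone 4 on standard medium and 146 and 145 on -Fe medium, a difference of -0.84 ± 0.25 (log2, SE, adjusted p = 0.189). ZIP9 read 197 and 567 units in zone 4 on standard medium and 437 and 404 on -Fe medium, a difference of 0.32 ± 0.50 (adjusted p = 0.881). ZIP6 differed by -0.04 ± 0.51 in zone 4 and MTP10 by -0.58 ± 0.49. No test of these genes against IRT1 or MTP8 was made.

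Along the root on standard medium, 3 of these 5 genes changed from zone 2 to zone 3, 2 higher and 1 lower, where 50.0% of all probe sets changed. MTP10 rose by 4.26 ± 0.49 (adjusted p = 6.28e-05), from 1.15 and 1.49 units to 333 and 80.1. ZIP9 rose by 1.79 ± 0.50 (adjusted p = 0.00984), and was lost without zone 2 standard replicate 2 (1.58, adjusted p = 0.0739) or zone 3 standard replicate 1 (1.13, adjusted p = 0.11). MTP11 fell by 1.25 on the log2 scale (SE 0.25, adjusted p = 0.00145), from 484 and 710 units to 232 and 251.

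From zone 3 to zone 4, ZIP6 rose by 2.28 ± 0.51 (adjusted p = 0.0197), from 87.9 and 15.8 units to 301 and 164. It was lost without zone 3 standard replicate 2 (1.27, adjusted p = 0.147), without zone 4 standard replicate 1 (1.86, adjusted p = 0.149) and in a fit of those 4 arrays alone (adjusted p = 0.22). At this step 4 of 5 had an unadjusted p under 0.05, as had 26.4% of all probe sets. Among them MTP10 differed by 1.37 ± 0.49 (limma, adjusted p = 0.0984) and ZIP9 by 1.46 ± 0.50 (adjusted p = 0.0857), so neither passed. With 1 array left out the difference ranged from 0.40 to 2.35 for MTP10 and from 0.72 to 2.20 for ZIP9. From zone 1 to zone 2, 0 of 5 passed with limma, where 20.5% of all probe sets did, and 0 of 5 had an unadjusted p under 0.05, where 37% did.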

How the data were processed

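The deposited intensities, on a linear scale, were made by the authors with MAS5, per the submitters' processing notes, from biotin-labelled cRNA. Per the labels' protocols, the RNA went through 2 cycles of amplification. Its version and settings are not given in the sources used here. On every array the mean between the 2nd and 98th percentiles was 249.9, so no further scaling was applied. The 64 control probe sets were left out of 22810. The offset, the filter (2 or more arrays with a value over the 40th percentile of that array) and limma 3.58.1 in R 4.3.3 (8 group means, 8 residual degrees of freedom, intensity trend) follow an earlier analysis of these arrays. Benjamini-Hochberg adjustment ran over the 16505 probe sets of a contrast, with a threshold of 0.05. The fit was tested on simulated data.

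The members and gene lists were chosen with earlier results of these data known. Named genes were the 5 members and the listed pathway and marker genes with a probe set annotated to them alone. The 4 single-gene probe sets most correlated with each member were named too. Of the pathway genes, MTP9 passed the threshold in no contrast. Names came from the platform annotation and RefSeq (TAIR10.1), with 13513 of 22746 probe sets annotated to 1 gene. Coordinates were used only for the order of genes on a chromosome, and sequences were not used here. The number of arrays limits the precision.

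Alternatives were another offset or none, other scalings, filters and variance settings, array weights, a replicate block, fits of the compared groups alone and leaving out each array.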

Additional observations from a re-analysis of the deposited data

How the results depend on the processing

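With 2 arrays per group, the number of arrays limits the precision, and dim readings of IRT1 and MTP8 on standard medium limit every fold made from them. The counts of probe sets past the threshold moved most with the arrays used. A fit of the compared groups alone gave 0 in place of 18 for the medium difference in zone 1, 14 in place of 48 in zone 3, 5469 in place of 8249 for zone 2 to 3 and 0 in place of 1416 for zone 3 to 4. Array weights gave 26 in place of 17 in zone 2, 23 in zone 3 and 328 for zone 3 to 4. The difference between zones in the medium effect gave 31 with 2 times the offset, 10 without it and 35 with a replicate block, in place of 20. The cause was not tested. Leaving out 1 array gave 3 to 21 in zone 1, 6 to 22 in zone 2, 23 to 125 in zone 3, 63 to 223 in zone 4, 147 to 319 averaged and 6 to 28 for the difference between zones. For the standard zone steps it gave 310 to 4086, 5245 to 8214 and 198 to 3367.

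Whether same-numbered arrays share roots is not stated, and the data did not settle it. Over 28 pairs of groups the replicate differences correlated at r from -0.126 to 0.465 (median 0.12), with 15 above 0.1. Of the 6 pairs within standard medium 2 were above 0.1, and of the 6 within -Fe medium 4 were. The replicate block brought the NAS4 step from zone 3 to 4 (limma, adjusted p = 0.0156) and the OPT3 step from zone 1 to 2 (adjusted p = 0.0389) past the threshold.

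Quantile normalization turned the IRT1 step from zone 2 to 3 to -0.0798. The ZIP6 medium difference in zone 4 turned to 0.0351 under it and to 0.10 under median centring. Several differences changed sign when 1 array was left out. Not all were near 0, as NAS4 and ZIP6 from zone 2 to 3 were 1.01 and 0.94 in the main fit. On standard medium from zone 1 to 2, the differences that changed sign ranged from -0.24 to 1.16 for IRT1, -1.23 to 0.0662 for NAS4, -0.33 to 0.0331 for MTP8 and -0.23 to 0.31 for MTP11. From zone 2 to 3 they ranged from -0.53 to 0.87 for IRT1, -0.77 to 2.79 for NAS4 and -0.0722 to 1.95 for ZIP6. From zone 3 to 4 they ranged from -0.62 to 0.15 for IRT1, -0.59 to 1.06 for OPT3 and -1.07 to 0.74 for MTP8. The averaged medium difference ranged from -0.14 to 0.35 for MTP10 and -0.12 to 0.39 for ZIP6, and that of zone 4 from -0.47 to 0.38 for ZIP6 and -0.43 to 1.06 for ZIP9. The medium difference of MTP8 in zone 1 ranged from -0.03 to 0.60. NAS4 from zone 2 to 3 passed without zone 3 standard replicate 2 (2.79, adjusted p = 0.0286).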

Other observations

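A group of 12 probe sets had all 8 -Fe arrays above all 8 standard arrays. Besides OPT3 and IRT1 they held 5 probe sets of 1 gene each and 5 with no single gene listed. The 5 were named after their values were seen. AT1G47400 ran from 11.2 to 20.4 units on standard medium and from 237 to 484 on -Fe medium, the widest gap of the 12, with the lowest -Fe array 11.6 times the highest standard array. BHLH101 and AT5G05250 had gaps of 4.25 and 4.07 times, between that of OPT3 (5.30) and that of IRT1 (1.41). AT3G56360 and PYE were separated by 1.10 and 1.09 times.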
